A study of Mus musculus with 23 samples.

Results

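Metallothioneins and the genes that sense and move zinc were followed in muscle and fat of mice with pancreatic tumors. The 6 genes were taken by symbol from the quadriceps and epididymal fat count tables: the metallothioneins Mt1 and Mt2, the zinc sensor Mtf1, the importers Slc39a14 and Slc39a10, and the exporter Slc30a1. All 6 were among the 12831 genes of the quadriceps table and the 16962 genes of the fat table, and all were above the limit of 3 counts in every library. They were chosen because Mt1, Mt2 and Slc39a14 were already known to stand out in the quadriceps of mice with KPC tumors. Their quadriceps values that involve KPC mice are therefore given below as a description, and nothing is read from their calls there. For the 6 genes, tests are given for the KPC IL6KO versus no tumor comparison in quadriceps and for the 3 comparisons in fat. Other genes are also given with calls in the quadriceps comparisons that involve KPC mice.

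Quadriceps libraries came from 3 mice without a tumor, 4 with KPC tumors and 4 with KPC IL6KO tumors, and each group also gave 4 libraries of epididymal fat. All were C57BL/6J males that had surgery at 8 weeks of age. No tumor mice had sham surgery, KPC mice received an orthotopic graft of a cloned mouse pancreatic cancer line that had been transfected with a null CRISPR plasmid, and KPC IL6KO mice received a clone of the same line in which Il6 was edited with CRISPR/Cas9. Each tumor group thus rested on 1 cell clone. The host mice were not edited, so Il6 in muscle or fat is no check of the label. Muscle and fat gave separate libraries, with 1 library per mouse in each tissue, and the study's methods describe a different library preparation for each tissue. No replicate number occurs in both tissues, and whether a mouse gave both was not stated. Mice are named here by group and replicate number (1 to 4 for quadriceps, 5 to 8 for fat).

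Library totals were 19259763 to 74907810 counts in quadriceps and 26306377 to 56308545 in fat. Levels are given as CPM, counts scaled to a common, TMM-adjusted library size. Counts varied far more between mice of a group in fat than in quadriceps, with a coefficient of variation from the common dispersion of 63.5% against 22.7%. In quadriceps the 6 myofiber markers summed to 150000 to 191000 CPM in no tumor, 121000 to 141000 in KPC and 176000 to 192000 in KPC IL6KO mice. All KPC mice were thus below the rest in this sum, but the markers differed. The means of Acta1, Ckm, Myh4 and Mylpf were lower in KPC than in no tumor mice. Those of Tnnt3 (24700 against 21800 CPM) and Actn3 (12900 against 11300 CPM) were higher. In fat the 5 adipocyte markers ranged from 471 CPM in no tumor mouse 7 to 10000 CPM in no tumor mouse 6, and the 8 epididymis markers, which belong to the neighboring duct, ranged from 743 CPM in KPC IL6KO mouse 5 to 90100 CPM in KPC IL6KO mouse 6. In whole tissue, fewer cells of a type and less RNA per cell cannot be told apart.

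Metallothioneins are small cysteine-rich proteins that bind zinc and copper and buffer the free metal in the cell. MTF1 is a transcription factor that is activated by zinc and binds metal response elements in the metallothionein genes and in Slc30a1. ZIP proteins (the Slc39a family) carry zinc into the cytosol, and ZnT proteins (the Slc30a family) carry it out of the cytosol, across the plasma membrane or into organelles. ZIP14, the product of Slc39a14, also carries iron and manganese. In liver, Mt1, Mt2 and Slc39a14 are known to be induced by IL-6, and glucocorticoids also induce the metallothioneins.

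Mt2 (chr8:94172664-94173568) and Mt1 (chr8:94179082-94180327) lie on the plus strand of chromosome 8 (GRCm38), with 5513 bases between them. Their start-site windows are shown because these 2 genes had the largest differences between groups of the 6, with that of Slc30a1 beside them as a gene of the same regulator whose level differed little. Each is a 300-base RefSeq window (GRCm38.p6, plus strand), at chr8:94172368-94172667 for Mt2, chr8:94178839-94179138 for Mt1 and chr1:191906531-191906830 for Slc30a1. Capitals mark each match, on either strand, to TGCNCNC, the core of the metal response element.
Mt2: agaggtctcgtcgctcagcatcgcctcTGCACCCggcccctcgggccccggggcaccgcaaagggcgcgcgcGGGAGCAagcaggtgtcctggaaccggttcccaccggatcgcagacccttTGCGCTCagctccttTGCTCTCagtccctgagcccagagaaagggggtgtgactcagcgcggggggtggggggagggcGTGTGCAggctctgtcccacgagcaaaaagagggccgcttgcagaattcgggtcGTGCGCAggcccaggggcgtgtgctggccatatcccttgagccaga
Mt1: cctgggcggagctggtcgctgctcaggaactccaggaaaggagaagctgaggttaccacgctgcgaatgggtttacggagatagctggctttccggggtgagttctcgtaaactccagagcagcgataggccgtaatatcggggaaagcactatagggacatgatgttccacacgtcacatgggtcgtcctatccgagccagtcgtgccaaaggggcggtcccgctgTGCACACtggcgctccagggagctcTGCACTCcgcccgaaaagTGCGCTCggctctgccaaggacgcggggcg
Slc30a1: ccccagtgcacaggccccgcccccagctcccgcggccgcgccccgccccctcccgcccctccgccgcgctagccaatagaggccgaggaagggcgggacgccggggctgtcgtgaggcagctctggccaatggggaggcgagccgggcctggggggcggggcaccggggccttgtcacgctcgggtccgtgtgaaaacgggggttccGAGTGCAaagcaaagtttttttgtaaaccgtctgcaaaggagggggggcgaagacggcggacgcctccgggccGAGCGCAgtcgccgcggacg

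The windows searched were those of Mt1, Mt2, Slc30a1, Mtf1 and Slc39a10. The Mt2 window held 6 matches, the Mt1 window 3 and the Slc30a1 window 2. The window of Mtf1 held 1, and the windows at 2 start sites of Slc39a10 held 1 and 0. Of 32851 such windows in the mouse genome, 51% held at least 1 match, 7.1% at least 3 and 0.697% at least 5. TTCNNNGAA, the core to which STAT proteins bind, was found in 8.3% of all windows and, of those searched for these genes, in 1 window of Slc39a10. A glucocorticoid response element motif was found in 0.475% of all windows and, of those searched for these genes, in that of Mt1. A match is a string of letters and was not tested as a site of binding.

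In quadriceps, both metallothioneins were high in KPC mice and low in the other groups. Mt1 was at 15, 20.9 and 22.4 CPM in no tumor mice 1 to 3, at 1120, 252, 1130 and 728 CPM in KPC mice 1 to 4, and at 8.04, 7.66, 15.9 and 12.2 CPM in KPC IL6KO mice 1 to 4. The lowest KPC mouse, mouse 2, lay above every mouse of the other groups. The mean was 807 ± 415 CPM (SD, n = 4) in KPC, 19.5 ± 3.93 (n = 3) in no tumor and 11 ± 3.89 (n = 4) in KPC IL6KO. The log2 fold change (FC) of KPC was 5.38 (SE 0.54) against no tumor and 6.20 (SE 0.49) against KPC IL6KO. These comparisons share the KPC libraries, here and for each gene below.

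Mt2 followed the same order with a wider span. It was at 5.78, 9.07 and 15.9 CPM in no tumor mice 1 to 3, at 963, 154, 922 and 551 CPM in KPC mice 1 to 4, and at 3.01, 2.91, 5.48 and 5.66 CPM in KPC IL6KO mice 1 to 4. KPC mouse 2 was again the lowest of its group, and the 3 groups did not overlap. The log2 FC of KPC was 6.00 (SE 0.68, 64.2-fold) against no tumor and 7.24 (SE 0.63, 152-fold) against KPC IL6KO. Together the 2 metallothioneins took 0.0398% to 0.188% of all counts in KPC quadriceps, 0.00226% to 0.00388% in no tumor and 0.00108% to 0.00216% in KPC IL6KO.

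The importer Slc39a14 (chr14:70303469-70351425, minus strand) was also high in KPC mice alone, with a smaller SE than the metallothioneins. Its level was 15, 14 and 16.8 CPM in no tumor mice 1 to 3, 529, 285, 432 and 625 CPM in KPC mice 1 to 4, and 15.3, 16, 16.3 and 18.6 CPM in KPC IL6KO mice 1 to 4. All 4 KPC mice stood above every other mouse, and the no tumor and KPC IL6KO mice overlapped. The log2 FC of KPC was 4.94 (SE 0.26, 30.7-fold) against no tumor and 4.82 (SE 0.23, 28.3-fold) against KPC IL6KO. KPC mouse 2 was the lowest of its group for this gene too, while the highest was mouse 4 for Slc39a14, mouse 3 for Mt1 and mouse 1 for Mt2.

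The importer Slc39a10 (chr1:46807544-46892852, minus strand), which encodes ZIP10, a plasma membrane transporter, differed the other way. It was at 4.36, 4.68 and 5.58 CPM in no tumor mice 1 to 3, at 3.05, 2.76, 3.14 and 2.73 CPM in KPC mice 1 to 4, and at 4.77, 4.05, 4.56 and 4.85 CPM in KPC IL6KO mice 1 to 4. Every KPC mouse was below every mouse of the other groups. The log2 FC of KPC was -0.73 (SE 0.15) against no tumor and -0.64 (SE 0.13) against KPC IL6KO.

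The exporter and the zinc sensor overlapped between the groups in quadriceps. Slc30a1 (chr1:191906767-191913247, plus strand), which encodes ZnT1, the plasma membrane exporter, was at 8.8, 9.64 and 9.78 CPM in no tumor mice, 9.19, 9.33, 12.3 and 9.86 CPM in KPC mice, and 9.53, 8.66, 7.21 and 8.42 CPM in KPC IL6KO mice. Its log2 FC of KPC was 0.11 (SE 0.14) against no tumor and 0.27 (SE 0.13) against KPC IL6KO. Mtf1 (chr4:124802104-124849800, plus strand) was at 27.1, 23.5 and 23.3 CPM in no tumor mice, 19.2, 21, 27.7 and 18.1 CPM in KPC mice, and 25.9, 25, 27.1 and 25.8 CPM in KPC IL6KO mice. Its log2 FC of KPC was -0.20 (SE 0.14) and -0.27 (SE 0.13), in the same order.

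**Figure D1:**
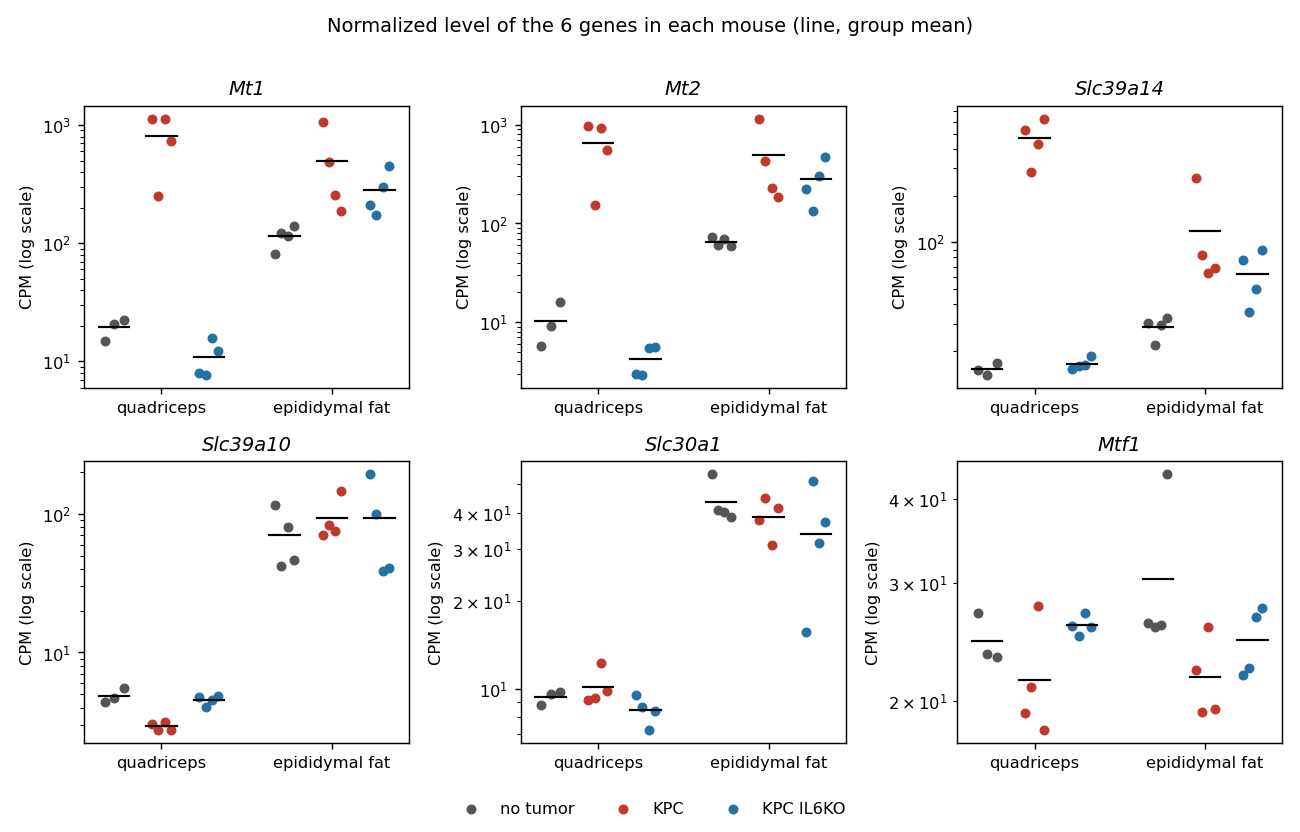
CPM (log scale) of each gene in each mouse, by tissue and group, with a line at the group mean. In quadriceps the 4 KPC mice lie far above the others for Mt1, Mt2 and Slc39a14 and below them for Slc39a10; in fat both tumor groups lie above no tumor for Mt1, Mt2 and Slc39a14.

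A gene was called at a false discovery rate (FDR) of at most 0.05 over all genes and an FC of at least 1.5 in the edgeR quasi-likelihood test. In quadriceps, 3 of the 6 genes were called higher and 1 lower in KPC than in no tumor, where 26.7% of all genes were called higher and 29% lower. Against KPC IL6KO it was again 3 higher and 1 lower, where 26.4% and 27.3% of all genes were. The same 4 genes had no overlap between the groups, which held for 32.3% (higher) and 33% (lower) of all genes against no tumor and for 31.2% and 30.8% against KPC IL6KO. Nothing is read from these counts, since the genes were chosen on these comparisons.

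Markers of other cells moved with some of these levels. The 4 neutrophil markers in the quadriceps table summed to 0.359 to 0.779 CPM in no tumor, 4.5 to 21.8 in KPC and 2.14 to 4.13 in KPC IL6KO mice, with 2 of the 4 at 0 in no tumor mouse 3 and none at 0 elsewhere. The lowest of the KPC mice was mouse 1, which was among the highest for Mt1 and Mt2. Only 1 of 6 hepatocyte markers, Alb, was in the table. Its level was 97.3 CPM in KPC mouse 4 and 0.0351 to 1.16 CPM in the other mice. Mt1 and Mt2 were higher in KPC mice 1 and 3 than in mouse 4, while Slc39a14 was highest in mouse 4, at 625 CPM. The 8 macrophage markers summed to 79.6 to 120 CPM in no tumor, 34.4 to 155 in KPC and 78.5 to 134 in KPC IL6KO mice, and 1 of them (Cd68) rose and 2 fell in KPC versus no tumor. The 5 adipocyte markers summed to 162 to 841, 30.4 to 425 and 43.3 to 152 CPM, and 2 fell. The part of these cells, and of the lower sum of myofiber markers, in the levels of the zinc genes was not tested.

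The quadriceps of KPC IL6KO mice, compared with no tumor, gave no call among the 6 genes, and 0% of all 12831 genes were called by the quasi-likelihood test. At an unadjusted p under 0.05 there were 887 genes, and the edgeR likelihood ratio test called 95 and DESeq2 96, none of them among the 6. Mt2 was lower in all 4 KPC IL6KO mice than in all 3 no tumor mice, with a log2 FC of -1.24 (SE 0.54, FDR = 0.678). It was the only one of the 6 genes without overlap in this comparison, and 8.01% of all genes were lower and 7.54% higher in this way. Mt1 had a log2 FC of -0.82 (SE 0.43, FDR = 0.804), with KPC IL6KO mouse 3 above no tumor mouse 1. Slc39a14 differed by 0.12 (SE 0.21), Slc39a10 by -0.09 (SE 0.15), Slc30a1 by -0.15 (SE 0.14) and Mtf1 by 0.07 (SE 0.14), each with an FDR of 1.

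In fat, both metallothioneins were higher in every mouse of both tumor groups than in every no tumor mouse. Mt1 was at 81.8, 122, 115 and 141 CPM in no tumor mice 5 to 8, at 1070, 484, 256 and 186 CPM in KPC mice 5 to 8, and at 211, 173, 298 and 448 CPM in KPC IL6KO mice 5 to 8. Mt2 was at 73.3, 60.3, 69.6 and 58.6 CPM in no tumor mice, at 1150, 426, 228 and 185 CPM in KPC mice, and at 222, 133, 302 and 474 CPM in KPC IL6KO mice. KPC mouse 5 was far above the rest for both genes, and the other 3 KPC mice overlapped the KPC IL6KO mice. Against no tumor, the log2 FC in KPC was 2.12 (SE 0.52, FDR = 0.225) for Mt1 and 2.93 (SE 0.59, FDR = 0.168) for Mt2. In KPC IL6KO it was 1.30 (SE 0.51, FDR = 0.487) and 2.11 (SE 0.57, FDR = 0.394).

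Slc39a14 in fat stood in the same order. It was at 30.3, 21.9, 29.5 and 32.8 CPM in no tumor mice 5 to 8, at 261, 83.2, 63.3 and 68.1 CPM in KPC mice, and at 77.1, 35.4, 50.2 and 89 CPM in KPC IL6KO mice. The no tumor mice lay below all tumor-bearing mice, and KPC mouse 5 was again the highest. The log2 FC against no tumor was 2.05 (SE 0.47, FDR = 0.199) in KPC and 1.14 (SE 0.46, FDR = 0.492) in KPC IL6KO.

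The remaining genes had small or scattered differences in fat. Slc39a10 was at 116, 42.1, 80 and 46.5 CPM in no tumor mice, 71, 83.9, 75.1 and 147 CPM in KPC mice, and 194, 99.6, 38.7 and 40.7 CPM in KPC IL6KO mice, so the groups overlapped. Its log2 FC against no tumor was 0.40 (SE 0.53, FDR = 0.765) in KPC and 0.39 (SE 0.53, FDR = 0.79) in KPC IL6KO. Slc30a1 also overlapped, at 54.1, 40.9, 40.2 and 38.6 CPM in no tumor, 37.6, 44.7, 31 and 41.6 CPM in KPC, and 15.6, 51.3, 31.6 and 37.1 CPM in KPC IL6KO mice. Its log2 FC against no tumor was -0.16 (SE 0.29, FDR = 0.838) and -0.36 (SE 0.30, FDR = 0.682). Mtf1 was at 26.2, 25.8, 26 and 43.6 CPM in no tumor, 22.3, 19.3, 25.8 and 19.5 CPM in KPC, and 21.9, 22.4, 26.7 and 27.6 CPM in KPC IL6KO mice. The highest KPC mouse was just below the lowest no tumor mouse, and the log2 FC was -0.48 (SE 0.20, FDR = 0.378) in KPC and -0.30 (SE 0.20, FDR = 0.661) in KPC IL6KO.

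None of the 6 genes passed the quasi-likelihood test in fat, where 0% of all 16962 genes were called in each comparison. At an unadjusted p under 0.05 there were 2061 genes in KPC versus no tumor, 1584 in KPC IL6KO versus no tumor and 1062 in KPC versus KPC IL6KO. In KPC versus no tumor, 3 of the 6 genes were higher without overlap, as were 6.52% of all genes, and Mtf1 was lower without overlap, as were 4.39%. In KPC IL6KO versus no tumor, the 3 genes Mt1, Mt2 and Slc39a14 were higher without overlap, as were 1.52% of all genes.

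The call in fat depended on the test. The study named edgeR but no test. Its published counts in fat, at the same limits, equal those of the edgeR likelihood ratio test here. They were 268 genes higher and 145 lower in KPC, and 209 higher and 0 lower in KPC IL6KO, each against no tumor. In quadriceps the published counts were close to those of this test but not equal. The edgeR likelihood ratio test called Mt1 (FDR = 0.0118), Mt2 (FDR = 0.000772) and Slc39a14 (FDR = 0.00501) higher in KPC than in no tumor, where it called 1.58% of all genes higher. DESeq2 called the same 3 genes (FDR = 0.00399, 6.16e-05 and 0.00208), against 2.15% of all genes. The quasi-likelihood test with the mean level of the epididymis markers as a covariate also called them (FDR = 0.036, 0.0248 and 0.036), against 3.47% of all genes. In KPC IL6KO, Mt2 alone of the 6 was called, at FDR = 0.035 by the likelihood ratio test and 0.0159 by DESeq2, which called 1.23% and 1.66% of all genes higher. Without KPC mouse 5, the quasi-likelihood log2 FC of KPC fell to 1.43 for Mt1, 2.09 for Mt2 and 1.32 for Slc39a14.

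Between KPC and KPC IL6KO fat, Mt1 differed by 0.82 (SE 0.51, FDR = 0.913), Mt2 by 0.82 (SE 0.55, FDR = 0.93) and Slc39a14 by 0.92 (SE 0.46, FDR = 0.836) on the log2 scale. Without KPC mouse 5 these differences were 0.13, -0.02 and 0.19. Slc39a10 differed by 0.01 (SE 0.52), Slc30a1 by 0.19 (SE 0.29) and Mtf1 by -0.18 (SE 0.20), with FDRs of 0.999, 0.986 and 0.986. All 6 genes overlapped between these groups, where 0.637% of all genes were higher and 3.69% lower without overlap, and none was called.

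Markers of several cell types moved in part with the metallothioneins in fat. The 6 neutrophil markers in the table summed to 3.09 to 6.57 CPM in no tumor, 24.4 to 58.9 in KPC and 4.42 to 63.5 in KPC IL6KO mice. The 8 macrophage markers summed to 193 to 682, 798 to 1340 and 341 to 1850 CPM. Within KPC, mouse 5 was highest in both immune marker sums and in Mt1, Mt2 and Slc39a14. The adipocyte marker sum also stood in the order of Mt1 and Mt2, at 1700, 1160, 824 and 557 CPM in KPC mice 5 to 8. So did the endothelial marker sum, at 696, 445, 222 and 211 CPM. Within KPC IL6KO, mouse 6 was lowest and mouse 8 highest in both immune sums and in these 3 genes. Mouse 5 was above mouse 7 in both immune sums (37.8 against 14.6 CPM and 1000 against 970 CPM). In Slc39a14, mouse 5 was also above mouse 7 (77.1 against 50.2 CPM), but it was below mouse 7 in Mt1 and Mt2. The adipocyte and endothelial sums of KPC IL6KO were highest in mouse 7, at 5780 and 522 CPM. The epididymis sum of KPC IL6KO was highest in mouse 6 (90100 CPM) and lowest in mouse 5 (743 CPM). The myofiber sum was highest in mouse 8, at 2320 CPM. Within KPC, mouse 6 was highest and mouse 5 lowest in both the epididymis and the myofiber sum, unlike in Mt1 and Mt2. Apart from the fit with the epididymis covariate, the part of these cells in the levels was not tested.

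**Figure D2:**
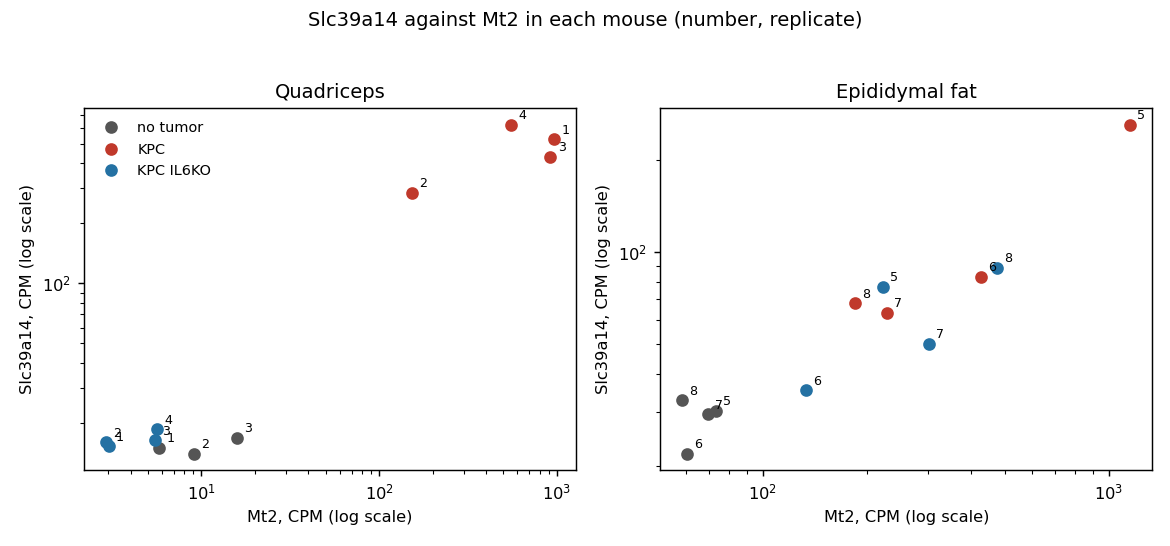
CPM of Slc39a14 (vertical) against CPM of Mt2 (horizontal) in each mouse, both on log scales, with 1 point per mouse, colored by group and labeled with the replicate number. In quadriceps the KPC mice stand alone at the upper right; in fat the no tumor mice lie at the lower left and the tumor groups mix, with KPC mouse 5 at 1150 CPM of Mt2 and 261 CPM of Slc39a14.

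The ratio of the 2 metallothioneins was not constant. Mt1 counts divided by Mt2 counts gave 2.6, 2.31 and 1.41 in quadriceps of no tumor mice, 1.16, 1.63, 1.23 and 1.32 in KPC mice, and 2.67, 2.63, 2.91 and 2.16 in KPC IL6KO mice. Every KPC IL6KO mouse was above every KPC mouse, and no tumor mouse 3 fell among the KPC mice. In fat the ratio was 1.12, 2.02, 1.65 and 2.4 in no tumor, 0.93, 1.14, 1.13 and 1 in KPC, and 0.952, 1.3, 0.987 and 0.945 in KPC IL6KO mice. No tumor mouse 5, the lowest of its group, lay among the tumor-bearing mice, and the other 3 no tumor mice were above all of them.

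**Figure D3:**
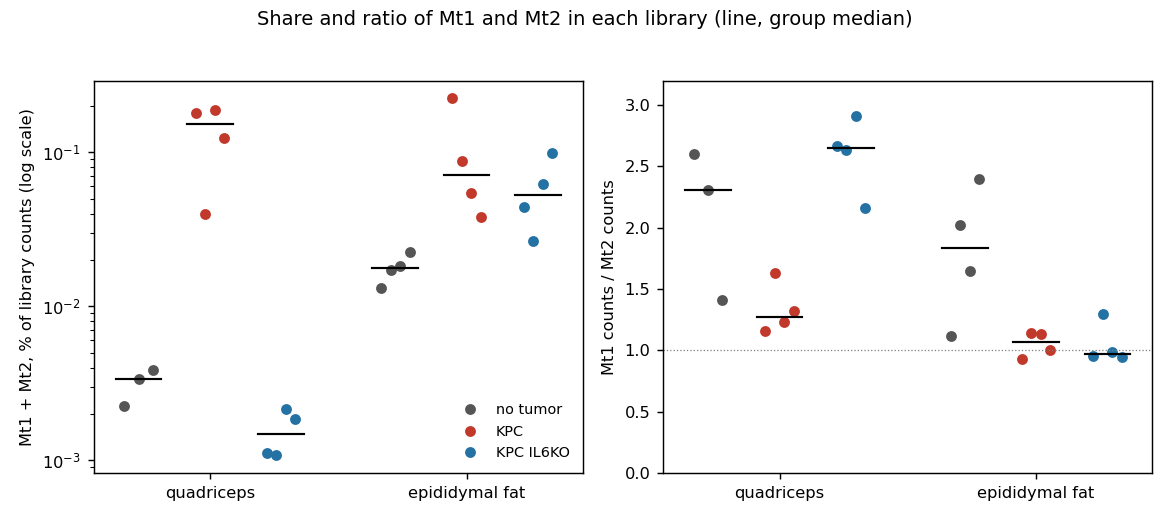
Left, Mt1 and Mt2 together as a percentage of all counts of the library (log scale); right, Mt1 counts divided by Mt2 counts, with a dotted line at 1; 1 point per mouse and a line at the group median. The share is highest in quadriceps of KPC mice (0.0398% to 0.188%) and in fat of both tumor groups, and the ratio is lower in those groups than in most no tumor mice.

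Reads of the 2 metallothioneins could be told apart by sequence. None of the 1317 strings of 75 bases in annotated Mt1 transcripts occurred in a transcript of another gene. Of 529 such strings of Mt2, 160 occurred on the opposite strand in Gm45774, an antisense gene on the minus strand at chr8:94170748-94173412 that is in neither count table. The libraries were strand specific, but the setting used for counting was not given, so reads of Mt2 and of Gm45774 might not be separated.

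Levels can be compared between genes only per length, here as mean CPM per kb of annotated exon. The exons of all annotated transcripts were merged. Merged exons covered the whole locus of Mt1 (1246 bases) but only part of that of Mt2 (588 bases). Which of the 2 ranks higher per kb therefore depends on these lengths, and Mt1 had more counts than Mt2 in every quadriceps library. In no tumor quadriceps, Mt2 was at 17.3 and Mt1 at 15.7 CPM per kb, ranks 3 and 4 among the 22 metallothionein, zinc transporter and Mtf1 genes measured, and Slc39a14 at 1.45 had rank 14. In KPC quadriceps, Mt2 at 1102, Mt1 at 648 and Slc39a14 at 44.4 CPM per kb took ranks 1, 2 and 3. In KPC IL6KO quadriceps they were at 7.24, 8.83 and 1.56 CPM per kb. In fat, Mt2 and Mt1 held ranks 1 and 2 of 25 in every group, at 111 and 92.3 CPM per kb in no tumor, 847 and 401 in KPC, and 481 and 227 in KPC IL6KO. Slc39a14 was at 2.71, 11.3 and 5.96 CPM per kb in these groups of fat, with ranks of 22, 10 and 19.

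The other metallothioneins and zinc transporters were taken from a list of 23 genes, of which 16 were in the quadriceps table and 19 in the fat table. In quadriceps of KPC versus no tumor mice, 4 of the 16 rose (25%, against 26.7% of all genes) and 4 fell (25%, against 29%). The median log2 FC of the 16 was -0.21, and that of all genes was -0.03. Both shares were close to those of all genes.

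The genes that rose were the transporters of organelles and vesicles Slc30a2 (log2 FC 1.27, FDR = 0.00782), Slc30a4 (0.98, FDR = 0.00477) and Slc30a5 (1.12, FDR = 0.000204), and Slc39a7, which encodes ZIP7 of the endoplasmic reticulum (0.79, FDR = 0.000394). Slc30a5 was at 9.99 to 10.8 CPM in no tumor, 15.5 to 29.2 CPM in KPC and 8.7 to 10.2 CPM in KPC IL6KO mice, without overlap between KPC and the rest. Slc30a2 did overlap, with KPC mouse 2 at 20.1 CPM below no tumor mouse 3 at 21.4 CPM. The genes that fell were Slc39a1 (-1.16, FDR = 1.25e-05), Slc39a2 (-2.12, FDR = 0.000244) and Slc39a3 (-1.08, FDR = 0.000108), which encode the plasma membrane importers ZIP1 to ZIP3, and Slc39a13 (-0.65, FDR = 0.000169), which encodes ZIP13 of the secretory pathway. Slc39a1 was at 44.9 to 52.8 CPM in no tumor, 18.8 to 25.8 CPM in KPC and 45.7 to 51.4 CPM in KPC IL6KO mice. Slc39a2 was low throughout, at 1.59 to 2.13, 0.169 to 0.573 and 1.22 to 1.75 CPM.

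The same 8 genes were called in the same direction in KPC versus KPC IL6KO quadriceps. There the log2 FC was 1.10 for Slc30a2, 0.85 for Slc30a4, 1.27 for Slc30a5 and 0.82 for Slc39a7, and -1.13 for Slc39a1, -1.80 for Slc39a2, -1.06 for Slc39a3 and -0.62 for Slc39a13. In KPC IL6KO versus no tumor quadriceps, 0 of the 16 were called, with log2 FCs between -0.33 and 0.17. The brain-enriched metallothionein Mt3 was at 0.346 to 0.866 CPM in all quadriceps, with a log2 FC of 0.14 (FDR = 0.702) in KPC versus no tumor.

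In fat, 0 of the 19 other zinc genes were called in any comparison by the quasi-likelihood test. The lowest FDR was that of Slc39a3, at -0.45 (FDR = 0.288) in KPC versus no tumor. Both Slc39a4 and Slc39a1, importers chosen after their values were seen, had larger differences there, at 2.04 (FDR = 0.367) and 0.75 (FDR = 0.343). Slc39a1 was thus at a positive log2 FC in fat and fell in quadriceps, and the difference between the tissues was not tested for it.

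**Figure D4:**
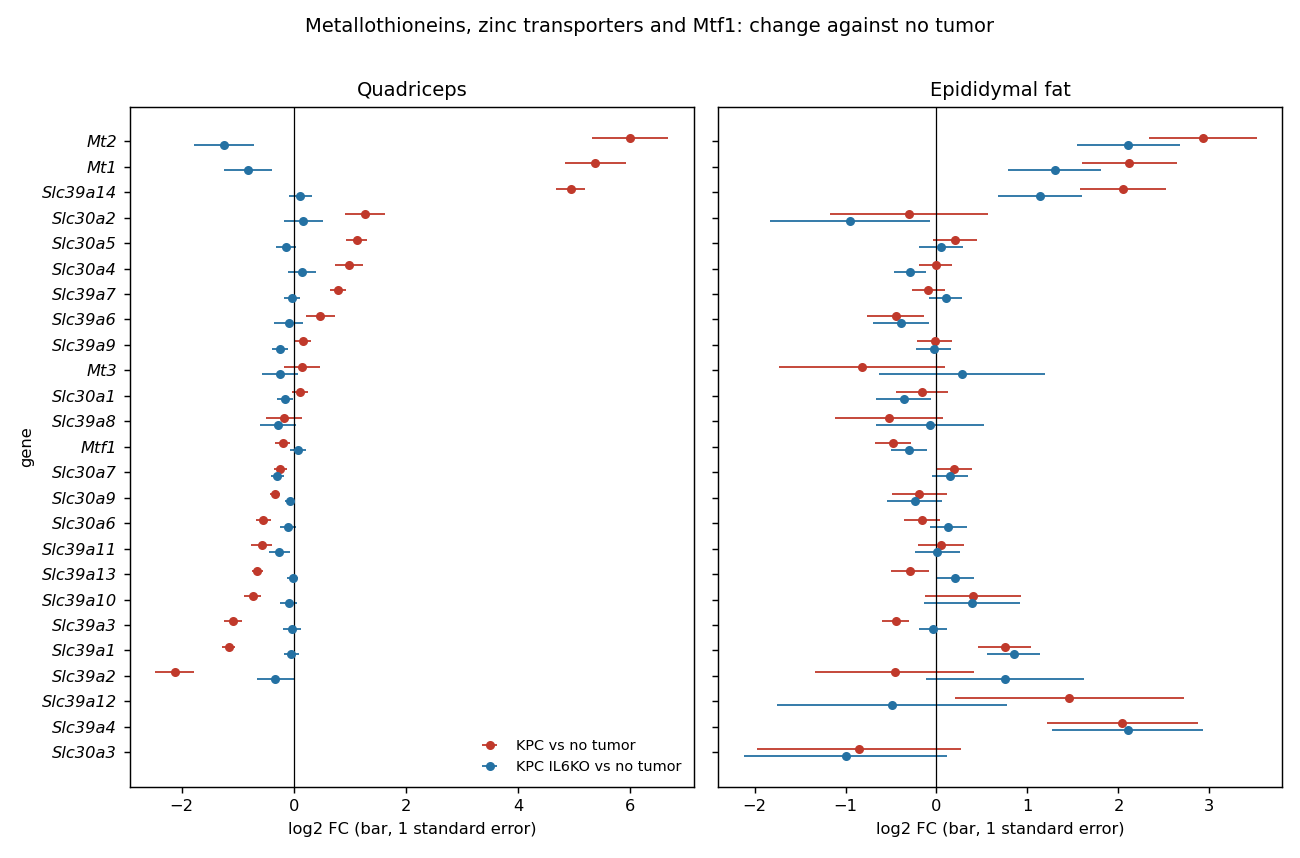
Log2 FC against no tumor with a bar of 1 standard error for each metallothionein, zinc transporter and Mtf1, in quadriceps (left) and epididymal fat (right), for KPC (red) and KPC IL6KO (blue); the horizontal scales differ, and genes without a point were not in the table. In quadriceps Mt2 (6.00), Mt1 (5.38) and Slc39a14 (4.94) stand apart for KPC alone. In fat the same 3 genes are to the right for both tumor groups, as is Slc39a4 (2.04 in KPC).

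Mt1 was among the 3 genes whose level within groups varied most like that of Mt2 in each tissue. Log2 CPM was centered on each group mean, and genes were ranked by Pearson r with Mt2 over the libraries of a tissue. In quadriceps (11 libraries, 10519 genes) the first 3 were Ythdf2 (r = 0.97), 1110004F10Rik (r = 0.96) and Mt1 (r = 0.96). Slc39a14 was at r = 0.72 and rank 1056, and at r = 0.26 without KPC mice 2 and 1, which lay farthest from their group mean of Mt2. In fat (12 libraries, 13915 genes) the first 3 were Adamts15 (r = 0.96), Mt1 (r = 0.92) and Il17ra (r = 0.92), and Slc39a14 was at rank 7 (r = 0.88, and 0.75 without KPC mice 5 and 8). Slc39a10 was at r = 0.67 in quadriceps and -0.41 in fat, and Slc30a1 and Mtf1 were between -0.02 and 0.2 in both. These values describe libraries that share depth and normalization and are given without a test.

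Gene lists around zinc were counted in quadriceps of KPC versus no tumor mice, where 26.7% of all genes were called higher and 29% lower. Of 4 targets of MTF1 other than the 6 genes, Gclc, which encodes the catalytic subunit of glutamate cysteine ligase, rose (log2 FC 1.13) and Csrp1 fell (-0.77), and Sepw1, the most abundant, was at -0.33 (FDR = 0.0199), under the FC limit. Of 18 genes of iron and copper handling, 4 rose (22.2%) and 6 fell (33.3%), shares close to those of all genes. The genes called included heme oxygenase Hmox1 (2.01), the ferritin chains Ftl1 (0.97) and Fth1 (0.74) and the iron regulator Ireb2 (0.75) upward, and the transferrin receptor Tfrc (-4.14), the ferrireductase Steap3 (-3.10) and the ferroxidase Heph (-1.93) downward. Heph was no longer called without no tumor mouse 2 (-1.22, FDR = 0.0561), and Csrp1 was at -0.58 without that mouse, just under the FC limit. The log2 FC of Heph was similar in quadriceps of KPC IL6KO versus no tumor mice (-1.86, FDR = 0.34). Between KPC and KPC IL6KO quadriceps it was -0.06 for Heph, -3.54 for Tfrc and -2.85 for Steap3.

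Of 7 genes of IL-6 and STAT3 signaling, 4 rose (57.1%, against 26.7% of all genes) and 0 fell (against 29%) in KPC quadriceps, led by the receptor Il6ra (5.21), Cebpd (3.92) and the oncostatin M receptor Osmr (1.37), while the co-receptor Il6st was at 0.58 (FDR = 0.0154), at the FC limit. Of 7 glucocorticoid-responsive genes and their receptor, 6 rose (85.7%) and 0 fell, led by Fkbp5 (3.96), Zbtb16 (2.88) and Klf15 (2.30). Both lists were chosen with earlier results of these data known, so nothing is read from these shares. Tsc22d3, the most abundant, rose by 0.90 (FDR = 0.0266), and this call was lost without no tumor mouse 1 or 2 or KPC mouse 1 or 3 (FDR = 0.0596 to 0.0942). In KPC IL6KO quadriceps and in the 3 comparisons in fat, the quasi-likelihood test called 0 genes of these 4 lists, as it called 0% of all genes. Of the STAT3 list, Socs3 and Bcl3, named after their values were seen, were higher without overlap in fat of both tumor groups. Of all genes, 6.52% in KPC and 1.52% in KPC IL6KO were higher in this way. In quadriceps of KPC versus no tumor mice both overlapped and neither was called. There the log2 FC was 1.03 (FDR = 0.0673) for Socs3 and 0.57 (FDR = 0.0448) for Bcl3. In fat, Socs3, the feedback inhibitor, had a log2 FC of 4.10 (FDR = 0.0763) in KPC and 3.80 (FDR = 0.325) in KPC IL6KO. That of Bcl3 was 2.49 (FDR = 0.199) and 3.18 (FDR = 0.385).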

How the data were processed

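RNA from 23 mouse libraries was analysed from the deposited count tables, 1 for quadriceps and 1 for epididymal fat. Per the labels and the study's methods, the authors checked reads of 75 bases with FastQC, aligned them to mm10 with STAR, kept uniquely mapped reads and counted them per gene with featureCounts 1.5.1 (Subread), giving the deposited raw counts, and the authors used edgeR 3.12.1. The labels and the methods name different library kits. The authors left out 1 no tumor muscle sample as an outlier, which is not analysed here. Reads shared between genes were dropped by the unique mapping step, which lowers counts of genes with close copies.

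Here, counts were normalized by TMM and fitted in edgeR 4.0.16 (R 4.3.3) with the quasi-likelihood test (glmQLFit, glmQLFTest), with the 3 groups of a tissue in 1 fit and no replicate block. filterByExpr removed no gene. FDR is the Benjamini-Hochberg value over all genes of the table, and the SE is the log2 FC divided by the square root of F. A gene was called at FDR of at most 0.05 and FC of at least 1.5. p-values set a difference between groups against the spread between mice. With 1 cell clone per tumor group, they hold no spread between clones. Alternatives were DESeq2 1.42.0, the likelihood ratio test, a newer quasi-likelihood fit, RLE scaling, other filters, only the groups compared, a replicate block, leaving out each library and, for fat, the epididymis marker level as a covariate. The floor of 3 counts is 0.0462 to 0.154 CPM in quadriceps and 0.0474 to 0.123 CPM in fat. The scripts were tested on simulated data. No pair of libraries of a group agreed within sampling noise. Coordinates and lengths are from GENCODE vM21 (GRCm38, the same build as mm10), windows from RefSeq (GRCm38.p6).

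The members and the gene lists were chosen with earlier results of these data known. Named genes were the 6 members, the other zinc genes called, the 3 largest rises and 3 largest falls called and the most abundant gene of each further list, and the 3 genes most like Mt2 among those whose log2 CPM averaged 1 or more.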

Additional observations from a re-analysis of the deposited data

Results flagged for a closer look

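Single mice stood far from the rest of their group of 4 for 4 of 30 groups of values tested, where chance gives about 1 in 20. All 4 were in fat. Mtf1 was at 43.6 CPM in no tumor mouse 8 and at 25.8 to 26.2 CPM in the other no tumor mice. Slc39a14 was at 261 CPM in KPC mouse 5 and at 63.3 to 83.2 CPM in the other KPC mice. Slc39a10 was at 147 CPM in KPC mouse 8 and at 71 to 83.9 CPM in the others. Slc30a1 was at 54.1 CPM in no tumor mouse 5 and at 38.6 to 40.9 CPM in the others.

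In KPC IL6KO mice, 3 genes lay on opposite sides of the no tumor mean in the 2 tissues in every mouse. The share of all genes that did so was not tested, so nothing is read from this count. Mt1 and Mt2 were below the no tumor mean in all 4 quadriceps and above it in all 4 fat pads, and Mtf1 the reverse. For Mtf1 this rests on no tumor mouse 8 in fat, since KPC IL6KO mice 7 and 8 (26.7 and 27.6 CPM) were below the mean of 30.4 CPM but above the other 3 no tumor mice. The difference between tissues in the log2 FC of KPC IL6KO versus no tumor, fat minus quadriceps, was tested after these values were seen, in 1 quasi-likelihood fit of all 23 libraries over 12599 genes. It was 3.33 (SE 0.82, FDR = 0.356) for Mt2, 2.08 (SE 0.70, FDR = 0.456) for Mt1 and -0.42 (SE 0.27, FDR = 0.712) for Mtf1, so none passed the correction. The test called 0 genes in all, with 1003 at an unadjusted p under 0.05. The fit took all libraries as independent, although whether a mouse gave both tissues was not stated. The study's methods describe a different library preparation for muscle and for fat, so tissue and library preparation cannot be told apart. Whether the tissues shared a sequencing run is not stated there.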

How the results depend on the processing

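The counts of other zinc genes called kept within 1.5 times of their value under every alternative run, and ranged over leaving out 1 library from 4 to 5 higher and 4 to 5 lower in quadriceps KPC versus no tumor, and from 3 to 5 higher and 3 to 4 lower in KPC versus KPC IL6KO. In quadriceps, leaving out 1 library moved the log2 FC of KPC versus no tumor between 5.17 and 5.68 for Mt1, 5.74 and 6.45 for Mt2 and 4.77 and 5.12 for Slc39a14. In fat of KPC versus no tumor, calls were gained under 3 alternatives. They were Mt1 at 2.10, Mt2 at 2.92 and Slc39a14 at 2.04 by DESeq2, at 2.12, 2.93 and 2.05 by the likelihood ratio test, and at 2.36, 3.05 and 2.18 (FDR = 0.036, 0.0248 and 0.036) with the epididymis covariate. In fat of KPC IL6KO versus no tumor, Mt2 was called at 2.09 and 2.11 by the first 2 of these and not with the covariate (1.84, FDR = 0.585).

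Signs turned for differences near 0. With the epididymis covariate, KPC versus KPC IL6KO in fat gave 0.01 for Mtf1, -0.48 for Slc39a10 and -0.12 for Slc30a1. Over leaving out 1 library, the same comparison ran from -0.02 (without KPC mouse 5) to 1.19 for Mt2, from -0.28 (without KPC mouse 8) to 0.66 (without KPC IL6KO mouse 5) for Slc39a10, and from -0.04 (without KPC IL6KO mouse 5) to 0.47 for Slc30a1. Slc39a10 ran from -0.25 (without KPC IL6KO mouse 5) to 0.73 in fat of KPC IL6KO versus no tumor, and from -0.17 to 0.01 (without no tumor mouse 3) in quadriceps of that comparison. The cause was not tested. Slc39a13 fell just under the FC limit without KPC mouse 3 in quadriceps (-0.58 against no tumor and -0.56 against KPC IL6KO), as did Slc30a4 without KPC mouse 1 (0.58 against KPC IL6KO).

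Equal replicate numbers are different mice, and not every same-numbered pair deviated together. Correlations of deviations were -0.15 to 0.26 for same-numbered and -0.24 to 0.27 for other pairs in quadriceps, and -0.54 to 0.65 and -0.65 to 0.62 in fat. A fit with the replicate number as a block gave 5.18 for Mt1, 5.79 for Mt2 and 4.79 for Slc39a14 in quadriceps KPC versus no tumor and changed no call among the 6 genes.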
